A study of Mus musculus with 18 samples.

Results

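Skeletal muscle of untreated wild-type mice kept on a high-fat diet (HFD) was sequenced in 2 separate groups of the study, and the comparison between them is described here across all genes. The members are the 6 libraries that the labels place in these groups, 3 in HFD-WT and 3 in WT-HFD, of 18 libraries in all. HFD-WT mice carry the genotype label wild type-transgenic control, and they are the controls of Nurr1 transgenic mice (HFD-Nurr1-mTg), which ate the same diet. WT-HFD mice are labelled wild type, and they are the untreated controls of wild-type mice given an agent labelled AQ with their drinking water (WT-HFD-AQ). The remaining groups are wild-type mice on normal chow, without AQ (WT-NC) and with it (WT-NC-AQ). Every group had 3 libraries, and the diet lasted 10 weeks. Libraries are numbered as biological replicates, without a statement that each came from its own animal, so p-values measure the spread between these libraries. Sex, age, litter, the muscle taken, the hour of collection, the sequencing run and the promoter of the transgene are not given in these sources. Except for sex, for which levels of Y-linked genes are given below, a difference in any of them cannot be told apart from the groups.

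HFD-WT and WT-HFD share diet and drug state, while their genotype labels differ. Their comparison sets 3 libraries of the transgene arm of the study (6 libraries) against 3 of its AQ arm (12 libraries), without AQ or a transgene. It describes these groups and does not give the size of the difference between whole arms. A set of matching controls that were housed or handled apart can differ in many ways. The circadian clock of muscle is a feedback loop in which BMAL1 (from Arntl) and CLOCK switch on their own repressors, so levels of clock genes move with the hour of day. Feeding, insulin and stress hormones move sterol, lipid and fuel genes on the same scale of hours. Muscle also contains fat cells, fibroblasts, vessels, nerve endings and immune cells, whose share depends on dissection.

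The deposited values are CPM, the reads of a gene relative to the library total, scaled by the authors, and whole reads were recovered from them. HFD-WT libraries held 13498195 to 14944684 reads and WT-HFD libraries 12164863 to 14775839. At these depths 3 reads correspond to 0.193 to 0.249 CPM, a floor that covers counting error only. Of 12558 genes in the table, 12524 reached 1 CPM in at least 3 libraries and were tested. All 8 skeletal muscle markers were measured, with a summed level of 146985 to 185773 CPM in HFD-WT and 144540 to 163953 CPM in WT-HFD. By limma 0 of the 8 passed and 0 reached 0.05 unadjusted. DESeq2 called 1 of them and edgeR 0. Nr4a2, which encodes NURR1, lay at 1.86, 2.30 and 1.57 CPM in HFD-WT and at 1.59, 1.49 and 1.07 CPM in WT-HFD, against 18.8, 30.1 and 19.8 CPM in the transgenic libraries. Neither control group carried transgenic levels of it.

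Between the controls, 559 of 12524 genes (4.46%) differed by limma at an adjusted p under 0.05. In HFD-WT, 348 genes (2.78%) were higher and 211 (1.68%) lower than in WT-HFD, so that 62.3% of the calls were higher. With CPM of total reads in place of the deposited scale, 395 genes passed and 44.8% of them were higher. Most of the changes were modest. The median log2 fold change, on the log2(CPM + 1) scale used throughout, was 0.49 among genes called higher and -0.48 among genes called lower, and 37 genes changed by more than 2-fold, 19 up and 18 down. Over all genes tested the median was -0.0012. The libraries of both groups did not overlap in 544 of the 559 genes, while 2886 of all genes tested (23.0%) did not overlap. At an unadjusted p under 0.05, limma gave 2528 genes (20.2%). The edgeR quasi-likelihood test called 562 genes (4.49%) and DESeq2 751 (6.0%). With the spread estimated from these 6 libraries alone, limma called 96 genes. The count was 327 without WT-HFD replicate 1, 145 without WT-HFD replicate 2, 748 without WT-HFD replicate 3, and 304, 214 and 368 without HFD-WT replicates 1, 2 and 3.

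The same fit gave 6 calls (0.0479%) for HFD against chow in wild-type mice and 6 (0.0479%) for AQ against no AQ on HFD, both of which use the WT-HFD libraries. It gave 75 calls (0.599%) for the transgene against HFD-WT. HFD-WT against chow-fed WT-NC gave 829 calls (6.62%). These comparisons share libraries with the one described here, and their counts are set side by side without a test of the difference.

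Some genes separated the arms whatever the diet or treatment. In 144 of all genes tested (1.15%), the 6 libraries of the transgene arm lay all above or all below the other 12. Among the 559 genes called, 46 did so (8.23%), 29 of them higher in HFD-WT and 17 lower. The HFD-WT and WT-HFD libraries that chose the 559 genes also enter this count. A share above that of all genes therefore follows in part from the choice and is no separate evidence. Dock2, a Rac exchange factor of leukocytes, lay at 4.49, 1.91 and 2.32 CPM in HFD-WT and at 0.484, 0.415 and 0.401 CPM in WT-HFD, with a log2 fold change of 1.39 ± 0.23 and a limma adjusted p of 0.00312. It reached 2.34 to 3.86 CPM in transgenic muscle and at most 0.980 CPM in any AQ-arm library. Lgr6, a receptor for R-spondins, lay at 4.11, 5.16 and 5.08 CPM against 1.80, 1.66 and 1.80 CPM, a log2 fold change of 1.07 ± 0.19 with a limma adjusted p of 0.00446. Both genes were low, so few reads stand behind the WT-HFD values. Golga7b also separated the arms, at 6.55, 9.21 and 8.96 CPM against 4.91, 1.83 and 4.41 CPM (log2 fold change 1.03 ± 0.27, limma adjusted p 0.0374). Without 1 of the libraries its limma adjusted p rose to as much as 0.201.

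Mast4, a microtubule-associated kinase, and Auts2, a nuclear protein that binds Polycomb complexes, were higher in HFD-WT, and their libraries did not overlap. Mast4 lay at 162, 157 and 154 CPM in HFD-WT and at 76.1, 70.4 and 75.7 CPM in WT-HFD, a log2 fold change of 1.08 ± 0.10 with a limma adjusted p of 1.47e-05. It did not separate the arms, since the chow-fed WT-NC-AQ libraries lay at 114 to 153 CPM. Auts2 lay at 41.9, 40.4 and 42.4 CPM against 17.3, 12.9 and 20.6 CPM, a log2 fold change of 1.27 ± 0.16 with a limma adjusted p of 3.58e-04. Spon2, a secreted matrix protein, was 6.27 times higher in the mean, at 7.26, 6.67 and 3.96 CPM against 1.94, 0.581 and 0.334 CPM (log2 fold change 1.89 ± 0.34, limma adjusted p 0.00516). Creb3l1, a membrane-bound transcription factor of the endoplasmic reticulum, lay at 13.9, 8.89 and 10.8 CPM against 6.92, 2.82 and 3.01 CPM (1.28 ± 0.27, limma adjusted p 0.0134, up to 0.0898 without 1 library).

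The largest decrease was in Slc25a30, a carrier of the inner mitochondrial membrane. It lay at 3.66, 2.94 and 6.13 CPM in HFD-WT and at 12.1, 25.5 and 12.9 CPM in WT-HFD, a log2 fold change of -1.74 ± 0.28 with a limma adjusted p of 0.00286. Cep85l lay at 13.7, 15.6 and 25.5 CPM against 68.9, 75.6 and 33.7 CPM (-1.61 ± 0.25, limma adjusted p 0.00244). Adh1, an alcohol dehydrogenase that also oxidises retinol, lay at 16.2, 14.2 and 25.7 CPM against 39.3, 52.9 and 48.7 CPM (-1.32 ± 0.18, limma adjusted p 8.53e-04). Inmt, an N-methyltransferase of indolamines, was lower by a log2 fold change of -1.51 and Fmo2, a flavin-containing monooxygenase, by -1.11, with limma adjusted p of 0.00684 and 0.00491. Angptl7, a secreted angiopoietin-like protein, lay at 53.1, 31.0 and 53.6 CPM against 171, 152 and 74.7 CPM (-1.47, limma adjusted p 0.00584). Lmod2, which sets thin-filament length, lay at 169, 172 and 195 CPM against 302, 606 and 320 CPM (-1.12, limma adjusted p 0.00584). The peptide transporter gene Slc15a5 (-1.36) and the actin-binding gene Fam107a (-1.30) complete the named decreases outside the lists, with limma adjusted p of 0.0219 and 0.0214 that rose to 0.132 and 0.0973 without 1 library, and that of Inmt rose to 0.054.

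**Figure D1:**
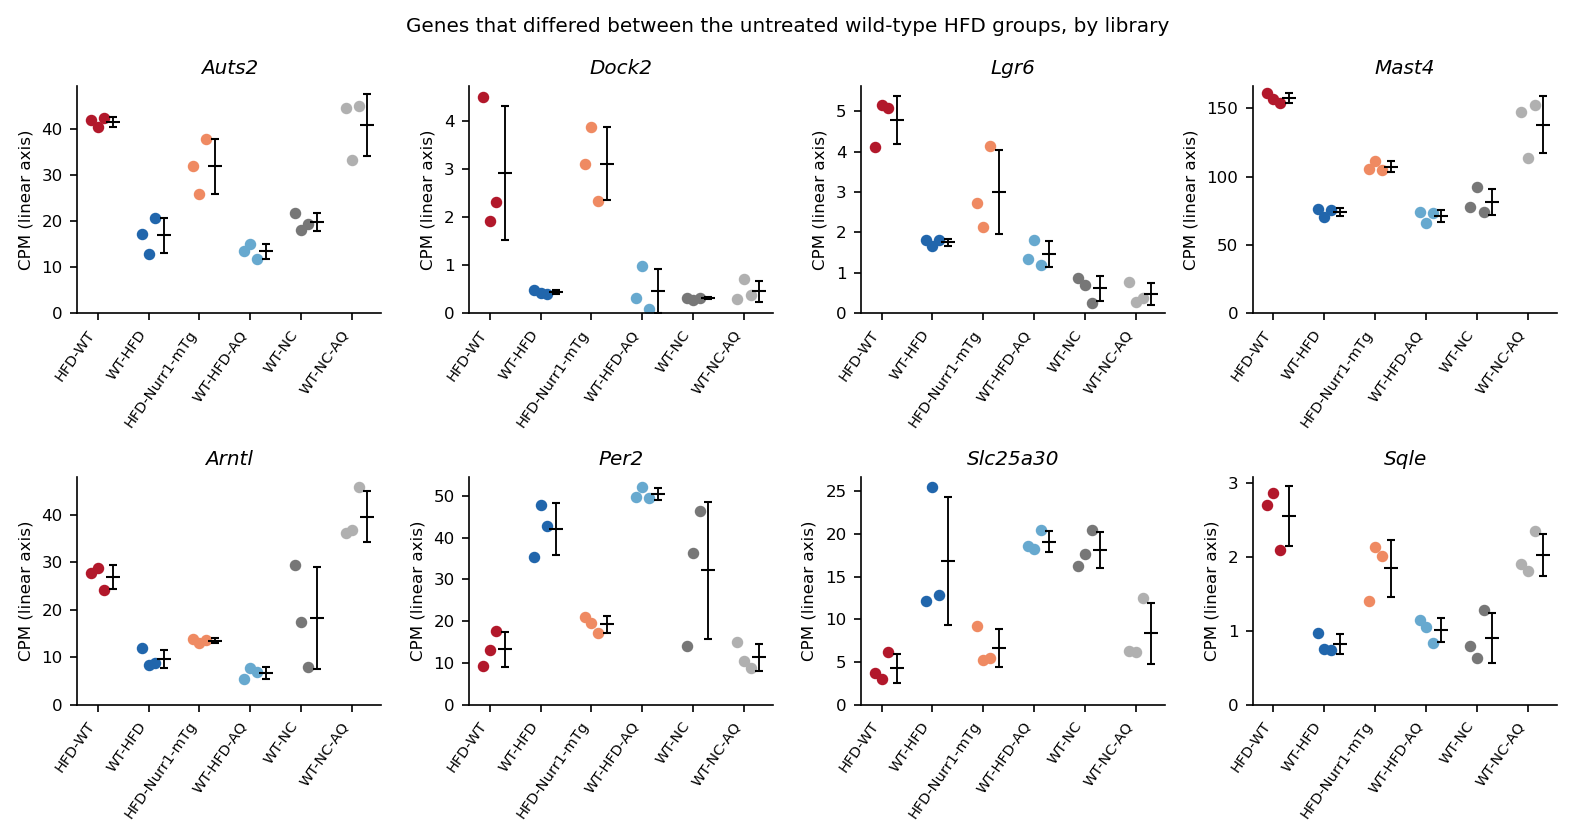
Levels in CPM (linear axes) of 8 genes in each of the 18 libraries, by group. Points are libraries and bars the mean ± SD of 3. Dock2 and Lgr6 are high in both groups of the transgene arm, while Auts2, Mast4, Arntl and Sqle are also high in WT-NC-AQ, where Per2 and Slc25a30 are low.

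The core clock genes held calls in both directions. Arntl, the activator, was higher in HFD-WT, and Per2, a repressor of it, was lower. Their promoters are a place where the loop closes, since nuclear receptors of the REV-ERB family (Nr1d1, Nr1d2) and ROR family bind response elements built on the letters AGGTCA. RefSeq promoters (250 bases before to 50 after the start, GRCm38.p6) were found for Arntl, Nr1d1 and Nr1d2, and are shown because these genes passed the test. Of 2 windows listed for Arntl the one with these letters is shown. Capitals mark AGGTCA on the strand shown.
Arntl, chr7:113207261-113207560, + strand: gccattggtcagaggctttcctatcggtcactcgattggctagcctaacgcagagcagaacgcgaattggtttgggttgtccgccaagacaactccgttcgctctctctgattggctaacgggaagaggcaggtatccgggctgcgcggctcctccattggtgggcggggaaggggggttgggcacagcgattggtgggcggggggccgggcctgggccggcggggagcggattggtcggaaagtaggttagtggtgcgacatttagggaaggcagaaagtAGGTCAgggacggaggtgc
Nr1d2, chr14:18239057-18239356, - strand: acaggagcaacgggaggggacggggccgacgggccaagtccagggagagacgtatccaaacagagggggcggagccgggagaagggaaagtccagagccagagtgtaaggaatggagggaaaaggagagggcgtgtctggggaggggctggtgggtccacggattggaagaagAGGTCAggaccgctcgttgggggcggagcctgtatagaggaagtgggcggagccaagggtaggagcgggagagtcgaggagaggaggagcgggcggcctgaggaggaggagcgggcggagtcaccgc
Nr1d1, chr11:98775328-98775627, - strand: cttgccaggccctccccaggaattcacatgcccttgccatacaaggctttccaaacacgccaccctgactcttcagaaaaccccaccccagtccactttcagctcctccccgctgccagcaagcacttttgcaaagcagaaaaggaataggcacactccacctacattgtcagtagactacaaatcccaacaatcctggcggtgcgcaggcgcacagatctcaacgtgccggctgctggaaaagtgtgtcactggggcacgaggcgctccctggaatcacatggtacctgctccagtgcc
Both strands were searched for the E-box CACGTG, the D-box TTATGNAA and AGGTCA, and none of these runs contains another. AGGTCA occurred once in the Arntl and once in the Nr1d2 window, and it occurs in 16.3% of all 32851 promoters of this length and in 12.5% of those of genes tested. The E-box letters are in 7.15% of all promoters and the D-box letters in 3.38%, and neither is in these 3 windows. A match is a run of letters and not a bound site.

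Arntl lay at 27.7, 28.8 and 24.1 CPM in HFD-WT and at 11.8, 8.38 and 8.69 CPM in WT-HFD. The groups did not overlap, and the log2 fold change was 1.40 ± 0.28 with a limma adjusted p of 0.00901, which rose to 0.054 without WT-HFD replicate 2. Among 5 activators and ROR genes, 1 was called higher and 0 lower, against 2.78% and 1.68% of all genes. Their median log2 fold change was 0.30. Clock, the partner of BMAL1, lay at 58.7, 61.6 and 60.2 CPM against 56.2, 48.3 and 42.7 CPM, without passing (0.30, limma adjusted p 0.207). Per2 lay at 9.25, 13.0 and 17.6 CPM against 35.4, 47.8 and 42.9 CPM, a log2 fold change of -1.62 ± 0.30 with a limma adjusted p of 0.00558. Its HFD-WT libraries were all below the lowest WT-HFD library. The REV-ERB genes moved in opposite directions. Nr1d1 lay at 355, 426 and 257 CPM against 208, 168 and 92.8 CPM (1.19 ± 0.28, limma adjusted p 0.0233), and Nr1d2 at 114, 126 and 141 CPM against 175, 197 and 166 CPM (-0.50 ± 0.11, limma adjusted p 0.0197). Without 1 library these rose to 0.103 and 0.112. Of 10 repressors, 1 was called higher and 2 lower, against the same 2.78% and 1.68% of all genes, with a median of -0.35. The median was -0.13 without HFD-WT replicate 1 and 0.24 with the log2 level of Arntl less that of Dbp as a covariate. Calls among the repressors came to 1 without WT-HFD replicate 2, HFD-WT replicate 1 or HFD-WT replicate 2, and to 2 without WT-HFD replicate 3. The repressors that did not pass gave log2 fold changes from -0.88 for Ciart to 0.60 for Bhlhe40.

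The clock-driven transcription factors Dbp, Tef, Hlf and Nfil3 were all below 0 with none called. Dbp lay at 76.3, 88.3 and 94.1 CPM in HFD-WT and at 137, 142 and 136 CPM in WT-HFD. The libraries did not overlap, but the log2 fold change of -0.68 had a limma adjusted p of 0.255, and of 0.0232 with the spread taken from these 6 libraries alone. A clock score, defined as the log2 level of Arntl less that of Dbp, lay between -1.92 and -1.43 in HFD-WT and between -3.93 and -3.43 in WT-HFD. It ran from -3.28 to -2.96 in HFD-Nurr1-mTg, from -4.65 to -3.95 in WT-HFD-AQ, from -1.62 to -0.24 in WT-NC-AQ, and from -4.37 to -0.65 within the single group WT-NC. The score thus spread more widely within WT-NC than between the controls on HFD, and it did not separate the arms. With the score as a covariate 319 genes were called, 190 of them among the 559, and all 559 kept their direction. Mast4, Auts2 and Dock2 passed there with limma adjusted p of 0.00257, 0.0126 and 0.0322. Spon2 (0.0962), Lgr6 (0.0665), Srebf1 (0.078), Inmt (0.142), Angptl7 (0.103), Lmod2 (0.0716) and Fmo2 (0.0964) did not pass there by limma adjusted p. Arntl and Per2 did not either (0.0938 and 0.0803), but Arntl is itself a term of the score. Since the score did not overlap between HFD-WT and WT-HFD, the covariate also takes up part of the difference between these groups. The calls kept or lost there therefore do not sort genes by dependence on the clock, which was not tested.

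**Figure D2:**
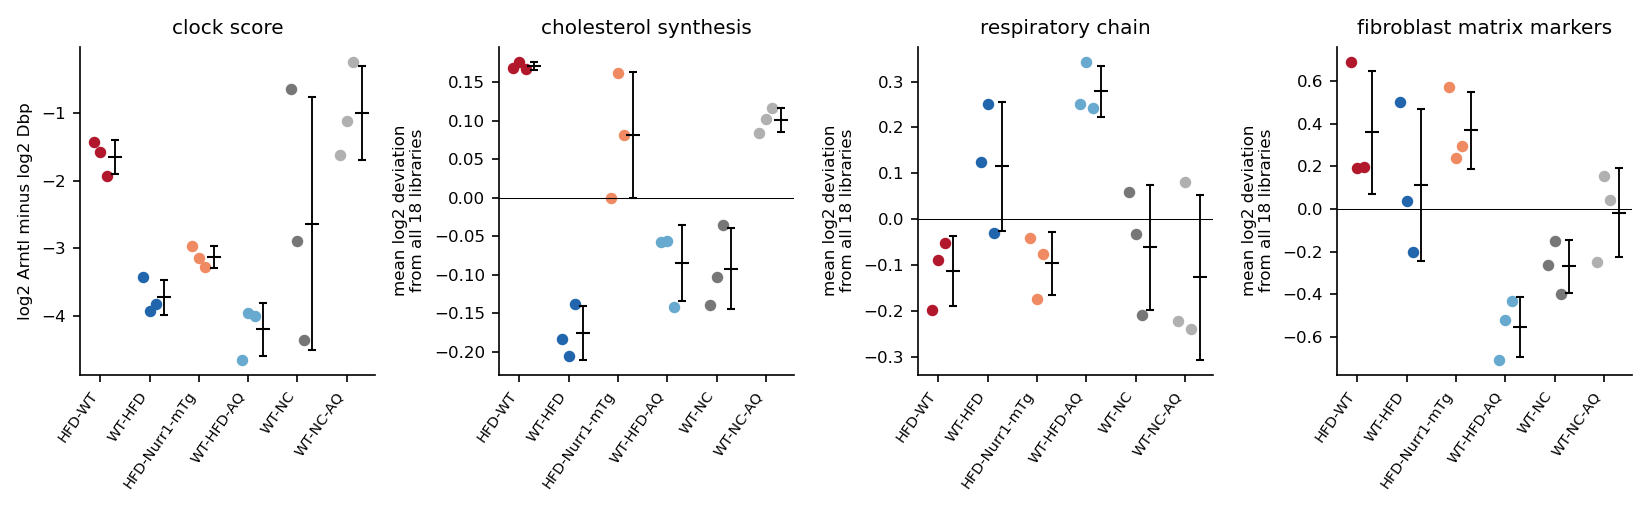
The clock score (log2 Arntl minus log2 Dbp) and the mean log2 deviation of 3 gene lists from all 18 libraries, by group. Points are libraries and bars the mean ± SD of 3. HFD-WT and WT-HFD do not overlap in the clock score, cholesterol synthesis or the respiratory chain, and overlap in the fibroblast and matrix markers. For the respiratory chain the gap is narrow, from -0.051 in HFD-WT replicate 3 to -0.029 in WT-HFD replicate 3.

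Several genes of sterol synthesis and its control were higher in HFD-WT. SREBP-2 (from Srebf2) is the transcription factor that switches on this pathway when cell sterols are low. Of 17 genes tested, 6 were called higher and 0 lower, against 2.78% of all genes called higher. The median was 0.27, and 14 of 17 lay above 0. Their summed level was 257 to 262 CPM in HFD-WT and 218 to 223 CPM in WT-HFD. Sqle, the squalene epoxidase, lay at 2.70, 2.86 and 2.09 CPM against 0.968, 0.747 and 0.735 CPM (0.96 ± 0.15, limma adjusted p 0.00245). Srebf2 itself lay at 26.9, 24.1 and 26.1 CPM against 17.1, 15.9 and 17.6 CPM (0.58 ± 0.10, limma adjusted p 0.0035). Neither gene overlapped between the groups, and both calls held without any 1 library. Also higher were Insig1, which holds SREBP in the endoplasmic reticulum, and Mvk, the mevalonate kinase, by 0.68 and 0.45 (limma adjusted p 0.026 and 0.0407). Without WT-HFD replicate 2, 3 members passed. The chow-fed WT-NC-AQ libraries had summed levels of 245 to 256 CPM, between those of the controls on HFD.

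Fatty acid synthesis showed the same direction in 11 of 15 genes, with 2 called higher, against 2.78% of all genes, and 0 lower. Srebf1, which drives lipogenic genes in response to insulin, lay at 133, 135 and 139 CPM against 70.3, 42.2 and 75.3 CPM (1.15 ± 0.30, limma adjusted p 0.0389). Fasn, the fatty acid synthase, lay at 87.9, 49.3 and 81.5 CPM against 40.1, 30.1 and 34.1 CPM (1.01 ± 0.20, limma adjusted p 0.00869). Neither gene overlapped between the groups. Without 1 library their limma adjusted p rose to 0.202 and 0.0569. Fat cells also express Fasn. Of 11 adipocyte markers tested 0 were called, 6 lay above 0, the median was 0.09 (-0.15 without HFD-WT replicate 1), and the summed level was 2694 to 3850 CPM in HFD-WT and 2841 to 3924 CPM in WT-HFD. The lipid droplet gene Plin1 lay at 32.2, 18.8 and 16.4 CPM against 8.78, 8.63 and 14.2 CPM (1.00, limma adjusted p 0.0921), while Cfd, which encodes adipsin, gave -0.73 (limma adjusted p 0.207). In bulk muscle, fewer cells of a type and less RNA per cell cannot be told apart, and the part of fat cells in these results was not tested.

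Mitochondrial genes lay lower in HFD-WT, with few passing the test. All 26 respiratory chain genes of nuclear origin lay below 0, with a median of -0.22. Of these 0 were called higher and 2 lower, against 1.68% of all genes called lower. The summed level of the 26 genes was 14745 to 16326 CPM in HFD-WT and 16317 to 19809 CPM in WT-HFD, so the sums overlapped. Ndufs1, a subunit of complex I, lay at 471, 477 and 510 CPM against 669, 685 and 569 CPM (-0.39 ± 0.09, limma adjusted p 0.0233), and Ndufa4 was lower by -0.35 (limma adjusted p 0.038). Both lost their calls without 1 library, with limma adjusted p up to 0.124 and 0.192. The citrate cycle showed a like pattern, with 15 of 19 genes below 0, a median of -0.22 (-0.08 without WT-HFD replicate 2) and 2 called lower. These were Sucla2, a subunit of succinyl-CoA ligase, at -0.33 (limma adjusted p 0.0119), and Fh1, the fumarase, at -0.33 (limma adjusted p 0.0486), which rose to 0.0626 and 0.218 without 1 library. Of 32 genes of fatty acid oxidation, 25 lay below 0 with a median of -0.15, and Ucp3 was called lower. Ucp3, the uncoupling protein of muscle mitochondria, which rises in fasting, lay at 152, 156 and 85.5 CPM against 355, 452 and 170 CPM (-1.24 ± 0.33, limma adjusted p 0.0423, up to 0.216 without 1 library).

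Glycolysis was mixed. Pfkfb3, which makes the main activator of phosphofructokinase, lay at 606, 776 and 572 CPM in HFD-WT and at 421, 209 and 172 CPM in WT-HFD (1.38 ± 0.37, limma adjusted p 0.0406, up to 0.168 without 1 library). Its sister enzyme Pfkfb1 was lower, by -0.59 (limma adjusted p 0.0367). Hk2, the insulin-regulated hexokinase of muscle, lay at 358, 387 and 431 CPM against 540, 587 and 530 CPM (-0.50 ± 0.09, limma adjusted p 0.00388). Over the 15 genes tested the median was 0.02, and its sign changed without WT-HFD replicate 3 (-0.03) or HFD-WT replicate 2 (-0.07). Among 20 genes of glucose uptake and insulin signalling 1 was called, Ugp2, which makes UDP-glucose for glycogen, at -0.56 (limma adjusted p 0.0392, up to 0.202 without 1 library). Of 16 regulators of metabolism, Nrip1, a corepressor of oxidative genes, was called lower at 18.4, 17.8 and 25.5 CPM against 38.2, 40.5 and 40.8 CPM (-0.94 ± 0.17, limma adjusted p 0.00516). The calls of Hk2 and Nrip1 held without any 1 library, and that of Pfkfb1 did not (limma adjusted p up to 0.168).

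By limma no fibre-type gene passed, and DESeq2 called 1 of the 13 fast-fibre genes. The 12 slow-fibre genes all lay below 0, with a median of -0.33 (-0.59 without HFD-WT replicate 1, -0.20 without WT-HFD replicate 2), and their summed level was 3173 to 3882 CPM in HFD-WT and 3653 to 4791 CPM in WT-HFD, so the sums overlapped. The 13 fast-fibre genes had a median of 0.10. Atp2a1, the calcium pump of fast fibres, lay at 34851, 39996 and 41595 CPM against 29900, 26388 and 26927 CPM, without passing (0.48, limma adjusted p 0.182). The counts and medians of these lists are descriptions without a test.

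At the nerve-muscle junction, Musk and Ache changed in opposite directions. Musk, the receptor kinase that assembles the junction, lay at 25.8, 23.5 and 24.1 CPM in HFD-WT and at 47.8, 60.8 and 51.6 CPM in WT-HFD (-1.09 ± 0.18, limma adjusted p 0.00282). Its call held without any 1 library. Ache, the acetylcholinesterase, lay at 47.5, 55.2 and 58.9 CPM against 39.8, 33.9 and 36.0 CPM (0.54 ± 0.13, limma adjusted p 0.0279, up to 0.132 without 1 library). The 12 junction genes had a median of 0.30, with 10 above 0. Of 17 genes of atrophy and denervation 0 passed. Of 13 myogenic genes 1 was called higher. Over all genes tested, 2.78% were called higher and 1.68% lower, and the counts of these lists were not tested against those shares.

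Stress and hormone lists held few calls, and in several of them WT-HFD replicate 2 was the high library. Its immediate early genes summed to 997 CPM, against 518 and 381 CPM in WT-HFD replicates 1 and 3 and 434 to 609 CPM in HFD-WT. Its heat shock genes summed to 7681 CPM, against 5390 and 5309 CPM and 5359 to 5955 CPM. Its glucocorticoid-responsive genes summed to 5149 CPM, against 3639 and 2320 CPM and 2349 to 2595 CPM. Without this library, limma called 145 genes in all. Of 16 glucocorticoid-responsive genes 13 lay below 0, with a median of -0.37, and 1 was called lower. The median was -0.23 without HFD-WT replicate 1. The list held 4 calls without WT-HFD replicate 3, 3 without HFD-WT replicate 3, 4 with DESeq2, and 0 without WT-HFD replicate 2, HFD-WT replicate 1 or HFD-WT replicate 2. The gene called lower in the main fit was Glul, the glutamine synthetase. Its libraries overlapped, at 105, 113 and 311 CPM against 468, 506 and 213 CPM (-1.25 ± 0.33, limma adjusted p 0.0402, up to 0.198 without 1 library). HFD-WT replicate 3 was the high library and WT-HFD replicate 3 the low one. Fkbp5, a chaperone induced by glucocorticoids, gave -1.23 (limma adjusted p 0.0568). Among 21 immediate early genes, which respond within minutes to handling and nerve activity, 0 were called, with a median of 0.13. That median was -0.09 without HFD-WT replicate 1, 0.01 without WT-HFD replicate 3, 0.26 without WT-HFD replicate 2 or HFD-WT replicate 3, and 0.23 without HFD-WT replicate 2. Of 21 heat shock genes 1 was called, Hspa8, at 121, 104 and 163 CPM against 226, 262 and 145 CPM (-0.69, limma adjusted p 0.0374), with overlap between the groups. The integrated stress response held Atf5 (0.50, limma adjusted p 0.0435) of 13 genes, and the NRF2 targets held Nfe2l2, the gene of NRF2 itself (-0.41, limma adjusted p 0.038), of 11. Without 1 library the limma adjusted p of Hspa8, Atf5 and Nfe2l2 rose to 0.201, 0.156 and 0.19. None of 19 interferon genes, 25 proteasome genes or 24 mitochondrial ribosome genes passed by limma, and 1 of 25 cytosolic ribosomal protein genes was called lower. In the remaining lists, Sat1 of polyamine breakdown (-0.53), the mitophagy receptor Bnip3 (-0.33) and the imprinted transcript Mirg (0.49) passed, with limma adjusted p of 0.0378, 0.0141 and 0.0478, and of up to 0.174, 0.0689 and 0.149 without 1 library. In all, 38 of 580 list genes passed, against 4.46% of all genes, and 15 of the 40 lists with at least 3 tested genes held none. In the lists without a limma call, marker lists included, 197 genes were tested, of which limma gave 27 below 0.05 unadjusted, against 20.2% of all genes. DESeq2 called 5 of these genes and edgeR 0.

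**Figure D3:**
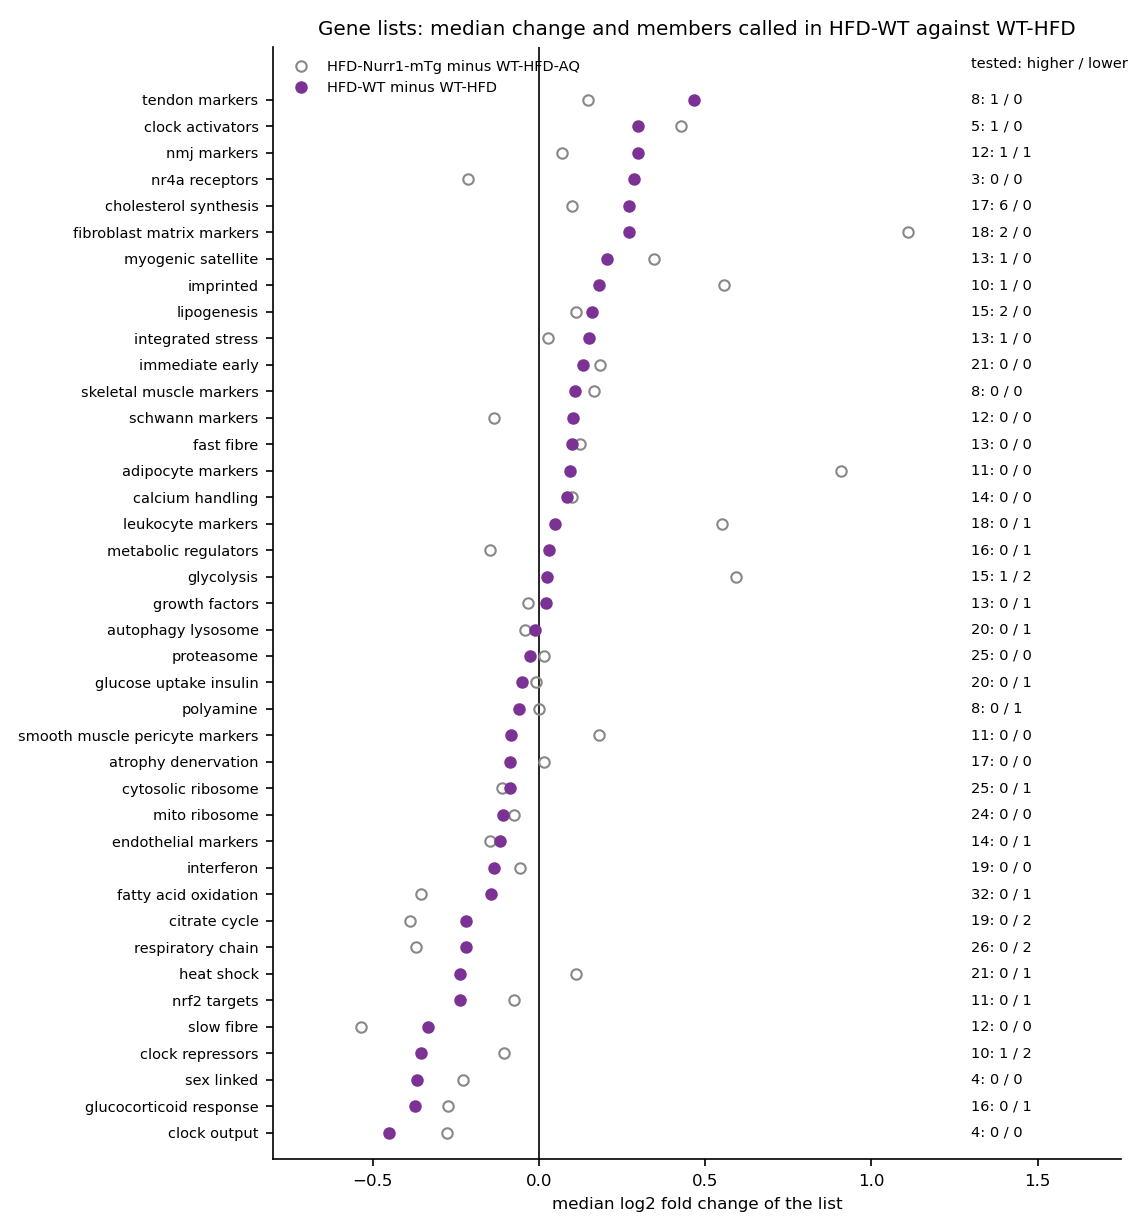
Median log2 fold change of 40 gene lists with at least 3 tested members, in HFD-WT minus WT-HFD (filled) and in HFD-Nurr1-mTg minus WT-HFD-AQ (open). The columns at right give the genes tested and the numbers called higher and lower in HFD-WT. Cholesterol synthesis holds the most calls, 6 of 17.

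At most 2 markers were called in each list of other cells in the tissue, against 4.46% of all genes, and these counts were not tested. Of 18 fibroblast and matrix markers, Fn1 (fibronectin) and Fbn1 (fibrillin) were called higher, by 0.45 and 0.74 with limma adjusted p of 0.0473 and 0.0491 (up to 0.209 and 0.205 without 1 library), and their libraries overlapped between the groups. The summed level of the list was 3824 to 6149 CPM in HFD-WT and 2855 to 5085 CPM in WT-HFD. Its median of 0.27 came to 0.03 without HFD-WT replicate 1, to 0.05 without WT-HFD replicate 3, and to -0.03 with the clock score as a covariate. Of 8 tendon markers Chad, a matrix protein of cartilage and tendon, was called at 61.5, 37.2 and 32.9 CPM against 27.0, 16.5 and 19.3 CPM (1.01 ± 0.23, limma adjusted p 0.0219, up to 0.123 without 1 library). The tendon list summed to 688 to 1116 CPM against 475 to 745 CPM, with 6 of 8 genes above 0. Its median of 0.47 was the largest of the 40 lists plotted, and came to 0.21 without HFD-WT replicate 1. Spon2, Fn1, Fbn1 and Chad are all matrix genes, and the part of connective tissue in their changes was not tested. Flt1, a VEGF receptor, was the single call of 14 endothelial markers (-0.50, limma adjusted p 0.0242, up to 0.147 without 1 library). Cd163, the haemoglobin scavenger receptor of tissue macrophages, was the single call of 18 leukocyte markers, at 11.9, 7.22 and 15.2 CPM against 26.4, 29.1 and 20.2 CPM (-1.11 ± 0.20, limma adjusted p 0.00428). Of the 18 leukocyte markers 12 lay above 0, the other way from Cd163, with a median of 0.05. The leukocyte list summed to 263 to 434 CPM in HFD-WT and 274 to 335 CPM in WT-HFD, a range that overlaps. Smooth muscle and pericyte markers (11 genes) and Schwann cell markers (12 genes) held no limma call, and DESeq2 called 1 of the 11. Cd28 was the only one of 10 lymphocyte markers tested, and erythroid and epidermal markers had 2 of 8 tested each, with none called by limma.

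The 4 Y-linked genes tested were expressed in all 6 libraries, and Xist was not among the genes of the deposited table. Ddx3y lay at 60.2, 80.1 and 70.0 CPM in HFD-WT and at 87.8, 88.6 and 107 CPM in WT-HFD, without passing (-0.43, limma adjusted p 0.134). All 4 lay below 0, with Kdm5d at -0.31 (limma adjusted p 0.0669), Eif2s3y at -0.51 and Uty at -0.25. Nnt, the mitochondrial transhydrogenase, which carries a deletion in the C57BL/6J strain, lay at 252, 221 and 232 CPM against 195, 198 and 239 CPM (0.16, limma adjusted p 0.322). Both groups expressed it, and their libraries overlapped. On autosomes and X the share of genes called ran from 2.73% to 5.92% by chromosome.

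The arms can be compared a second time, in HFD-fed groups that share no library with the first pair. HFD-Nurr1-mTg against WT-HFD-AQ crosses the same arms, but differs in transgene and AQ as well. In this pair 2117 genes were called (16.9%), 9.32% of all genes higher and 7.59% lower. Of the 559 genes called between the untreated controls, 529 had the same direction in it (94.6%), against 69.7% of all genes, 329 of 348 among the higher and 200 of 211 among the lower. The median log2 fold change of these sets was 0.36 and -0.34 there. Both pairs called 334 genes in the same direction, which is 59.7% of the first pair's calls and 15.8% of the second's. Across 12524 genes the log2 fold changes of the pairs had a Pearson r of 0.51, where genes are not independent replicates. The difference between the pairs was itself tested, and 36 genes passed (0.287%), 3 of them among the 559.

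Values in the second pair follow for single genes, none of which passed the test of the difference between the pairs. In the second pair Dock2 changed by 1.51, Auts2 by 1.18, Arntl by 0.93, Per2 by -1.35, Slc25a30 by -1.43 and Adh1 by -1.65, each called by limma. Golga7b changed by 2.70 there and Nr1d1 by 1.85. Srebf1, at 0.15, Ucp3, at 0.46, Cd163, at 0.02, and Hk2, at 0.02, were not called in it. The lists are set side by side in the same way, without a test of the difference. In the second pair 4 sterol genes were called higher and 1 lower, with a median of 0.10, 18 of 26 respiratory chain genes were called lower (median -0.37), and 14 of 18 matrix markers were called higher (median 1.11). Adipocyte markers had a median of 0.91 there, with 5 called higher, against 0.09 and 0 calls between the untreated controls.

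**Figure D4:**
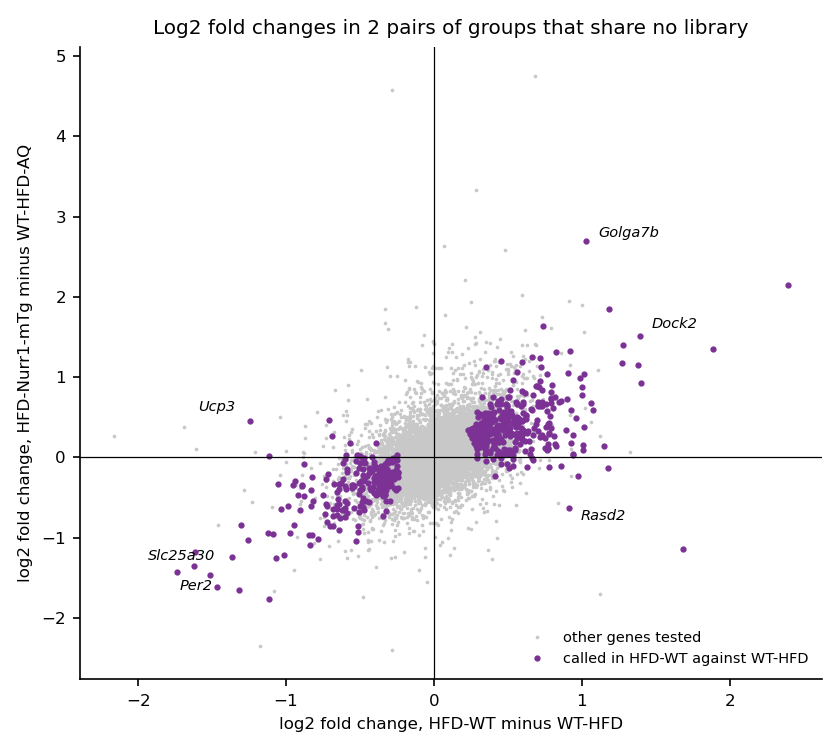
Log2 fold change of each tested gene in HFD-WT minus WT-HFD (horizontal) and in HFD-Nurr1-mTg minus WT-HFD-AQ (vertical), pairs that share no library. Genes called in the first pair are purple. They lie mainly in the upper right and lower left, with Rasd2 and Ucp3 among the exceptions.

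The log2 fold changes also followed the GC content of the transcripts. Genes called higher in HFD-WT had a median GC content of 55.3% and genes called lower one of 45.0%, against 49.8% for all genes. Of 12456 tested genes with a GC content, divided into 10 bins, the bin of lowest GC held 2 genes called higher and 52 called lower. The bin of highest GC held 86 and 7. Median log2 fold changes rose from -0.11 to 0.11 across the bins. Across genes, Pearson's r between log2 fold change and GC was 0.30, and 0.24 in the second pair. After removal of each library's GC trend, 273 genes were called, 163 higher and 110 lower, and 243 of these were among the 559. Mast4, Per2, Sqle and Musk passed there with limma adjusted p of 6.38e-05, 0.0067, 0.00356 and 0.00385. Srebf1 (0.0829), Pfkfb3 (0.0599), Ucp3 (0.0523) and both respiratory chain genes (0.0643 and 0.204) did not pass by limma adjusted p.

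**Figure D5:**
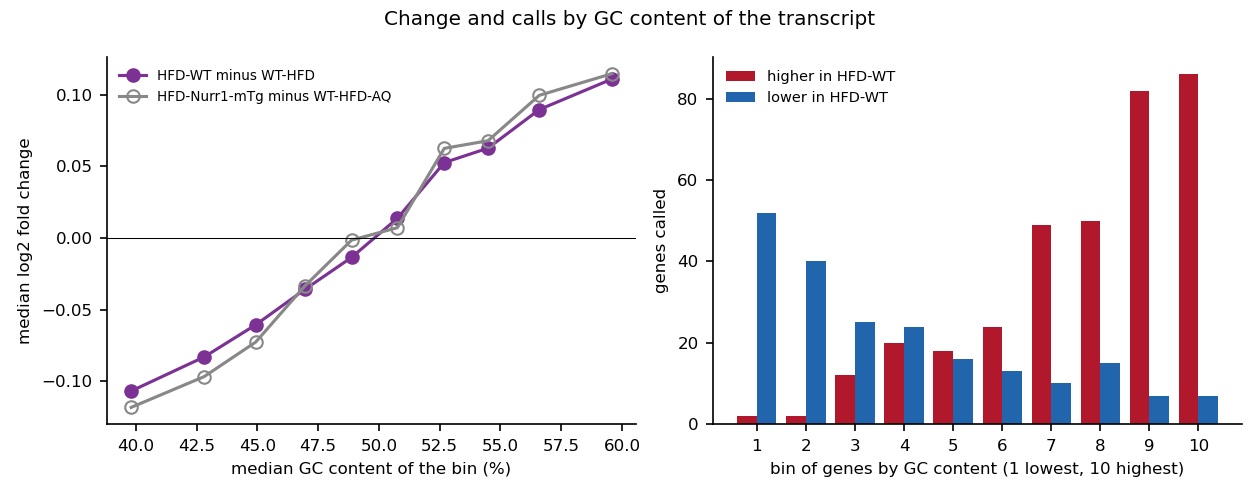
Left, median log2 fold change against median GC content (%) in 10 bins of genes by GC content, for both pairs. Right, genes called higher and lower in HFD-WT in each bin. Calls shift from lower in the bin of lowest GC (2 higher, 52 lower) to higher in the bin of highest GC (86 higher, 7 lower).

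The libraries as wholes were not much further apart between the controls than within them. The root mean square log2 difference over genes was 0.34 on average between HFD-WT and WT-HFD libraries, 0.28 within HFD-WT and 0.30 within WT-HFD. HFD-WT libraries were at 0.30 from HFD-Nurr1-mTg and at 0.31 from the chow-fed WT-NC-AQ, closer than the 0.34 to the group of the same diet and no AQ. These are averages over 3 pairs of libraries within a group and 9 between groups, and the order was not tested.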

How the data were processed

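The authors deposited a CPM table for 12558 genes, a signal scaled by library, with TopHat2 2.0.12, edgeR, GRCm38 and mm10 named in the submitters' processing notes. The sources used here do not give the counting tool, annotation, strand or gene filter, so overlapping, antisense or near-identical genes may share reads. Deposited CPM columns summed to 929993 to 1071538. All values (100.0%, tolerance 1e-06) were whole multiples of the value of 1 read, and TMM factors computed from the recovered reads matched the deposited scaling. Counts per library were 10404895 to 16082994.

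The test was limma 3.58.1 in R 4.3.3 (trended eBayes, two-sided) on log2(CPM + 1) in a single fit of 6 groups with 12 residual degrees of freedom. Folds of low genes are compressed by the pseudocount of 1. Genes needed 1 CPM in at least 3 libraries. Benjamini-Hochberg adjustment covered 12524 genes, threshold 0.05. Alternatives were edgeR 4.0.16 and DESeq2 1.42.0 on recovered reads, other pseudocounts, filters, scalings and variance models, a GC trend removed per library (loess, span 0.3), a clock covariate, a replicate block, only the groups compared, and each library left out. Members and 43 gene lists were chosen with earlier results of these data known. Named genes were the 12 largest changes each way among called, non-overlapping genes with a higher mean of at least 2 CPM, without unnamed models, up to 4 called or 2 uncalled genes per list, and the clock, Nr4a, Nnt and sex-linked genes. Genes outside the rule (Insig1, Mvk, Fkbp5 and those that differ between the pairs) were named after their values were seen. Some genes that the rule names are not reported here. Gene positions and GC content came from GENCODE M21 (GRCm38), matching 12024 symbols directly and 465 by synonym. On reads simulated with the depths and dispersions of these libraries, limma recovered 53.7% of 1.5-fold, 91% of 2-fold and 98.5% of 4-fold changes. It made 8 false calls in 12445 genes. The simulated reads varied independently by gene, without a GC trend or shifts shared by the genes of a library. Changed genes were drawn only above a minimum mean count. These rates hold for that setting and do not calibrate the calls in the real libraries. No library was a duplicate of another in its group (chi-square over degrees of freedom 17.1 or more).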

Additional observations from a re-analysis of the deposited data

Results flagged for a closer look

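The difference between HFD-WT and WT-HFD was itself compared with that between HFD-Nurr1-mTg and WT-HFD-AQ, and 36 genes (0.287%) passed that limma test, 3 of them among the 559. Rasd2, a small GTPase, was higher in HFD-WT at 118 ± 14.0 CPM (SD, n = 3) than in WT-HFD at 62.2 ± 9.7 CPM, and lower in HFD-Nurr1-mTg at 40.1 ± 3.0 CPM than in WT-HFD-AQ at 63.2 ± 14.1 CPM. Its log2 fold changes of 0.91 and -0.63 differed by 1.54 ± 0.21 (SE, limma adjusted p 0.00259). It was the 1 gene called in opposite directions by both pairs. Fam53b was higher in HFD-WT at 60.02 ± 4.8 CPM than in WT-HFD at 34.7 ± 5.1 CPM, while the second pair lay at 49.5 ± 7.5 and 53.7 ± 7.6 CPM. Its log2 fold changes of 0.78 and -0.12 differed by 0.90 ± 0.18 (limma adjusted p 0.0422). Arrb1, which encodes a beta-arrestin, was higher in both pairs, but by less between the untreated controls. It lay at 46.4 ± 2.4 against 36.0 ± 1.1 CPM there and at 64.9 ± 1.8 against 29.2 ± 0.96 CPM in the second pair, and the difference of log2 fold changes was -0.77 ± 0.12 (limma adjusted p 0.00746).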

How the results depend on the processing

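Under every alternative run, those of the 559 genes that were tested there kept their direction. The number of genes called between HFD-WT and WT-HFD was 273 with the GC trend removed, 319 with the clock score as a covariate and 96 with only the groups compared, and 145 to 748 without 1 library. The groups share replicate numbers, but deviations of same-numbered libraries correlated at 0.007, 0.049 and -0.015, and in the second pair at -0.038, -0.092 and -0.014. Libraries with different numbers gave -0.034 to 0.073 over both pairs. No sign of pairing by number was seen, but correlations over all genes cannot exclude a shared litter or run. With the replicate block 39 genes were called, and 34 with the block and the GC trend removed. The list genes called (38) came to 19, 11, 11 and 10 with the GC trend removed, only the groups compared, the replicate block, and block and GC trend together, to 61 with DESeq2 and to 10 to 55 without 1 library. The share of called genes with the same direction in the second pair (94.6%) was 96.24% with the clock covariate, 97.92% with only the groups compared, 88.24% with block and GC trend, and 86.9% to 97.66% without 1 library. The second pair's count was 1129 to 1530 without 1 library. Genes that differed between the pairs (36) were 56 with the replicate block, 136 with DESeq2 and 14 to 134 without 1 library. Of 53 named genes called, 32 kept the call with the GC trend removed, 22 with the clock covariate, 18 with only the groups compared and 18 with the replicate block, and 22 without any 1 library. The causes were not tested. Fits with fewer libraries or groups have fewer degrees of freedom. Some of them gave more calls than the main fit, as the 748 between HFD-WT and WT-HFD without WT-HFD replicate 3. With only the groups compared, the second pair gave 2529 calls, against 2117 in the main fit. In the simulation 53.7% of 1.5-fold changes were recovered, and smaller changes were not simulated. With 3 libraries a group, changes of that size or less may be missed.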
